A study of Homo sapiens with 6 samples.

Results

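The genes examined were 10 that encode ligands through which immune cells recognise or spare a tumour cell: 5 checkpoint ligands (CD274, CD276, CD47, PVR and NT5E) and 5 ligands of the activating receptor NKG2D (MICA, MICB, ULBP1, ULBP2 and ULBP3). They were chosen by name, all 10 were found among the 58243 genes listed, and their values were compared between metformin and PBS. The libraries came from CAL27, an established human line derived from a tongue squamous carcinoma, grown in high glucose medium with serum. One group of 3 libraries received phosphate-buffered saline (PBS) for 48 h, and the other group of 3 received 30 mM metformin, a biguanide drug that lowers blood glucose, for 48 h. No other dose or time and no immune cell was part of the series, so the ligands were measured as transcripts of tumour cells grown alone. The labels do not say whether the libraries came from separate cultures. The p-values here therefore set the group difference against a spread between libraries that may be technical.

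Most checkpoint ligands on a tumour cell bind inhibitory receptors on T cells, natural killer cells or macrophages and restrain them. NT5E is counted with them here, although it encodes an enzyme that acts through its product adenosine. NKG2D ligands are relatives of MHC class I that stressed, infected or transformed cells place on their surface, where NKG2D on natural killer cells and some T cells reads them as a signal to kill. The amount of ligand on the surface depends on transcription and also on translation, trafficking and cleavage from the membrane, which transcript levels do not show.

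Levels are in FPKM, fragments counted per length of transcript and per sequencing depth, a scale on which genes of different length can be compared. A log2 change is the difference of mean log2(FPKM + 1) values, metformin minus PBS, and with the added 1 it comes out smaller than the ratio of means for weakly expressed genes. In bulk RNA, fewer cells with a transcript and less transcript per cell cannot be told apart. A gene was called higher or lower where the adjusted p of limma, a linear model fitted across all genes with Benjamini-Hochberg adjustment, was below 0.05. Of the 10 ligand genes, 9 averaged at least 1 FPKM over the 6 libraries and were tested, and ULBP1 fell below that level. Metformin-treated cells had more CD274, NT5E and MICB transcript and less CD276, CD47 and ULBP2 transcript, while PVR, MICA and ULBP3 were not called. Thus 3 of the 9 were called higher and 3 lower, against 56.2% of all 13437 tested genes called in either direction, 31.0% higher and 25.2% lower. The balance of that background depends on the scaling, with 3745 genes higher and 3750 lower under median-of-ratios scaling and 3645 higher and 3813 lower under quantile scaling. The median log2 change of the 9 was 0.06, and that of all tested genes was 0.06. The groups did not overlap in 7 of the 10 genes, 4 with metformin above and 3 with metformin below, where the same held for 64.4% of tested genes (35.7% above and 28.7% below). The shares of the ligand genes lay near these backgrounds, so the genes are described one by one.

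**Figure D1:**
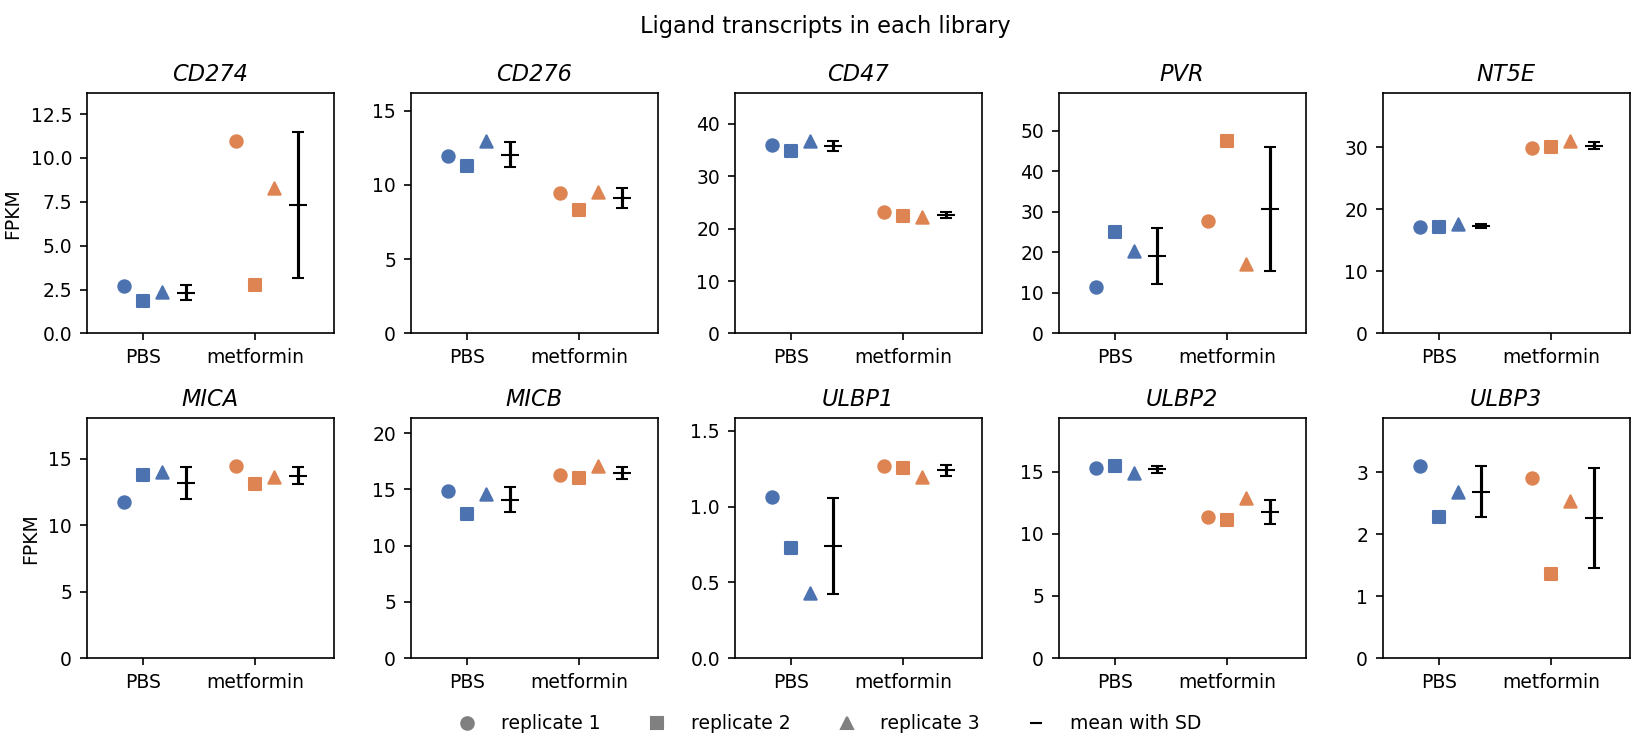
FPKM of each ligand gene (vertical axes start at 0) in the 3 PBS and the 3 metformin libraries; marker shapes give the replicate number, and the black bars give the group mean with its SD. CD47 and NT5E hold tight groups that lie apart, from 35.8 to 22.6 and from 17.3 to 30.3 FPKM on average, while the metformin values of CD274 run from 2.78 to 10.9 and those of PVR from 17.1 to 47.4.

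The start regions of 7 of these genes are shown, namely those that held a match to a motif marked below. Each is the 250 bases before the transcription start in RefSeq (GRCh38.p14), written 5′ to 3′ on the gene's strand. All 10 genes had such a window, and CD276 had 2 of them. Capitals mark matches, on either strand, to the core of the cyclic AMP response element (CRE, TGACG), to the core of the interferon-stimulated response element (ISRE, a pair of GAAA with 2 bases of any kind between them) or to the heat shock element core (GAANNTTC).
CD274, chr9:5450292-5450541, plus strand: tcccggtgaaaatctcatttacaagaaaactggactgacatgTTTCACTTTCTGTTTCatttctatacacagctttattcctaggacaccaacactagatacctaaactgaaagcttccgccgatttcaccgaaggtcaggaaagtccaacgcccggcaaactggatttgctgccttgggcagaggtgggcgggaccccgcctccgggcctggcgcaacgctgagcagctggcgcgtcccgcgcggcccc
NT5E, chr6:85449833-85450082, plus strand: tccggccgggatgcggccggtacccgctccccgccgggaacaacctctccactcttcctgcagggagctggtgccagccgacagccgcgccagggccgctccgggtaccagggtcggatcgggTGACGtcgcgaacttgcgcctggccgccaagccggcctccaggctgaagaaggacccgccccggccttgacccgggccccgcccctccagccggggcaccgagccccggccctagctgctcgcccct
CD47, chr3:108091032-108091281, minus strand: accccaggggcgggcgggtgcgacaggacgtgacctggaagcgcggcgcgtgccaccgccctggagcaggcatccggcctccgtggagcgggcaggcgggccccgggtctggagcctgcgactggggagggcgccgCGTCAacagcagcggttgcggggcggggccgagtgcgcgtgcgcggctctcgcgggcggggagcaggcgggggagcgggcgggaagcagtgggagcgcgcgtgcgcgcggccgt
ULBP1, chr6:149963693-149963942, plus strand: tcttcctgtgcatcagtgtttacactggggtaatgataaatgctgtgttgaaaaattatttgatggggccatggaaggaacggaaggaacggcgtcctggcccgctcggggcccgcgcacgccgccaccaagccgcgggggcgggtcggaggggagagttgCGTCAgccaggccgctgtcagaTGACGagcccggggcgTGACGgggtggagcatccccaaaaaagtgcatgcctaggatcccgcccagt
ULBP2, chr6:149941764-149942013, plus strand: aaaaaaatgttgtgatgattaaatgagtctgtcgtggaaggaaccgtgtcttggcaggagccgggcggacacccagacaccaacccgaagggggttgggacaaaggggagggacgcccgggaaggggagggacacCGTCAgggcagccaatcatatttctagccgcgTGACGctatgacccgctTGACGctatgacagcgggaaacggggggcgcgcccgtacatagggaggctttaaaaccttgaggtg
MICA, chr6:31403345-31403594, plus strand: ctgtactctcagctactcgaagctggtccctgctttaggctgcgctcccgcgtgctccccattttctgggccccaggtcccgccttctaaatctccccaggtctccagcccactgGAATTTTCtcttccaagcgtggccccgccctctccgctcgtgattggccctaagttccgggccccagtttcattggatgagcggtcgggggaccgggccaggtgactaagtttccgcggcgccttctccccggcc
MICB, chr6:31497895-31498144, plus strand: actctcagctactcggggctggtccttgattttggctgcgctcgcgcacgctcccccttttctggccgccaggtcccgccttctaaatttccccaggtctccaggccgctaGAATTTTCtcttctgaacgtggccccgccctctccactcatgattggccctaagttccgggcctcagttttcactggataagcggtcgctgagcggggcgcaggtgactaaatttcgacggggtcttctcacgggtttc

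The CD274 window held 2 overlapping ISRE core matches, whose first bases lie 208 and 202 bases before the start, an arrangement searched for because interferons are known inducers of PD-L1. Of 35114 RefSeq windows of this length, 3.02% held an ISRE core. The CD274 window also held the interferon-gamma activated site TTCNNNGAA at 125 bases before the start, a motif found in 6.57% of windows. CRE cores, which factors of the CREB and ATF family bind, occurred once in the NT5E window (127 bases before the start) and once in the CD47 window (114 bases before the start). The ULBP1 window held 3 CRE cores and so did the ULBP2 window. At least 1 CRE core was present in 21.2% of all windows, and at least 3 were present in 353 of the 35114. MICA and MICB, which arose by duplication, each held 1 heat shock element core (135 and 139 bases before the start), a motif found in 5.78% of windows. Their windows were identical at 210 of 254 aligned positions (82.7%). The PVR, CD276 and ULBP3 windows held none of the marked motifs and are not shown. Other motifs were searched as well. TGACGTCA, TGATGNAA, TGANTCA and TTTNGCGC matched no window of the ligand genes, and matches to ACGTG and GGGCGG were not marked. A match describes letters in a window and not a site in use. GENCODE 29 begins CD47, NT5E, MICA and MICB further upstream than RefSeq, so the windows shown for them lie within the annotated genes.

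CD274 (ENSG00000120217.13, chromosome 9, 5450503 to 5470566, plus strand of GRCh38) encodes PD-L1, the ligand that inhibits T cells through PD-1. Its level was 2.70, 1.87 and 2.38 FPKM in PBS replicates 1, 2 and 3, and 10.9, 2.78 and 8.28 FPKM in metformin replicates 1, 2 and 3. The groups did not overlap, but metformin replicate 2 sat just above the highest PBS library while the other metformin libraries were several-fold higher. The mean went from 2.32 ± 0.418 to 7.33 ± 4.16 FPKM (SD, n = 3 each), a 3.16-fold rise with a log2 change of 1.18 (SE 0.40, 95% interval 0.22 to 2.14, limma adjusted p = 0.0425). Between the metformin libraries the highest value was 3.94 times the lowest, and the residual SD of CD274 exceeded that of 98.1% of tested genes. The estimated fragments behind these values were 91, 60 and 86 with PBS and 357, 96 and 291 with metformin. With metformin replicate 2 left out, the log2 change was 1.67 and the adjusted p 0.000700. The call was lost when PBS replicate 1, 2 or 3 or metformin replicate 1 or 3 was left out, with adjusted p = 0.0742, 0.114, 0.0873, 0.114 and 0.119 by limma and log2 changes from 0.84 to 1.26. The direction was the same in all 19 alternatives, and the adjusted p was above 0.05 in 9 of them, among them quantile scaling (0.0645) and fits that also took in genes below 1 FPKM (0.0582 and 0.104).

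PDCD1LG2, the neighbour of CD274 on chromosome 9 that encodes the second PD-1 ligand PD-L2, was looked at after its values were seen. It had 0.516, 0.618 and 0.292 FPKM with PBS and 2.33, 2.32 and 2.13 FPKM with metformin. All metformin libraries lay above all PBS libraries. The metformin values were close together where those of CD274 were spread. The PBS values all lay below 1 FPKM and were scattered for their level, from 0.292 to 0.618 FPKM. On the log2 scale, where the added 1 shrinks differences between such low values, PDCD1LG2 rose by 1.15 (SE 0.12, limma adjusted p = 0.000273).

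CD276 (ENSG00000103855.17, chromosome 15, 73683966 to 73714518, plus strand) encodes B7-H3, a relative of PD-L1 that is abundant on many carcinomas. It was measured at 12.0, 11.2 and 12.9 FPKM with PBS and at 9.47, 8.35 and 9.51 FPKM with metformin. Every metformin library was below every PBS library. From 12.0 ± 0.845 to 9.11 ± 0.663 FPKM (SD, n = 3 each), the fall was 1.32-fold, or -0.37 on the log2 scale (SE 0.08, limma adjusted p = 0.00714).

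CD47 (ENSG00000196776.14, chromosome 3, 108043094 to 108091862, minus strand) encodes the signal that tells macrophages not to engulf a cell, given through SIRPA. It was the most abundant of the 10 transcripts in PBS, at 36.0, 34.8 and 36.6 FPKM, against 23.2, 22.5 and 22.2 FPKM with metformin. Within a group the highest value was at most 1.05 times the lowest, and the groups were far apart. The mean fell 1.58-fold, from 35.8 ± 0.960 to 22.6 ± 0.503 FPKM (SD, n = 3 each), which was -0.64 on the log2 scale (SE 0.05, limma adjusted p = 7.5e-05). Its residual SD was larger than that of only 2.37% of tested genes. Estimated fragments numbered 2233 to 2658 with PBS and 1513 to 1563 with metformin, the most for any of the ligand genes.

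PVR (ENSG00000073008.14, chromosome 19, 44643798 to 44663583, plus strand) encodes CD155, which activates natural killer and T cells through CD226 and inhibits them through TIGIT. Its PBS libraries read 11.6, 25.1 and 20.4 FPKM, and its metformin libraries 27.7, 47.4 and 17.1 FPKM. The groups overlapped: metformin replicate 3 was below PBS replicates 2 and 3, and metformin replicate 2 was the highest of all 6. The means were 19.0 ± 6.87 and 30.7 ± 15.4 FPKM (SD, n = 3 each), with a log2 change of 0.61 (SE 0.40, 95% interval -0.35 to 1.57) and a limma adjusted p of 0.234. Its interval covers a fall as well as a rise larger than that of NT5E. The log2 change was 0.31 without PBS replicate 1, 0.25 without metformin replicate 2 and 0.96 without metformin replicate 3, and PVR was called in none of these. Like CD274, PVR varied more between libraries of a group than 98.1% of tested genes. At 333 to 1406 estimated fragments per library, PVR was better covered than CD274. PVR shares 121 exon bases, 3.44% of its exonic length, with CEACAM19 on the same strand. CEACAM19 had 0.911, 1.27 and 1.23 FPKM with PBS and 4.33, 4.14 and 4.91 FPKM with metformin, groups that lay apart where those of PVR overlapped.

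NT5E (ENSG00000135318.11, chromosome 6, 85449584 to 85495791, plus strand) encodes CD73, the surface enzyme that turns AMP into adenosine, which inhibits T cells and natural killer cells. Its FPKM were 17.1, 17.1 and 17.7 with PBS and 29.8, 30.1 and 30.9 with metformin. All metformin values lay far above all PBS values, and the values within a group were close together. The mean rose 1.75-fold, from 17.3 ± 0.323 to 30.3 ± 0.585 FPKM (SD, n = 3 each), which was 0.77 on the log2 scale (SE 0.05, limma adjusted p = 3.3e-05). Of all tested genes, 0.938% had a smaller residual SD. The calls of NT5E, CD47, CD276 and ULBP2 were kept in all 20 alternatives run for each.

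MICA (ENSG00000204520.12, chromosome 6, 31399784 to 31415315, plus strand) lies in the MHC region and encodes a stress-inducible NKG2D ligand. It had 11.7, 13.8 and 14.0 FPKM with PBS and 14.4, 13.1 and 13.6 FPKM with metformin. The groups overlapped, PBS replicate 1 being the lowest library and metformin replicate 1 the highest. The log2 change was 0.06 (SE 0.08, 95% interval -0.14 to 0.25, limma adjusted p = 0.572), an interval that leaves out changes as large as those of CD47 and NT5E. Without PBS replicate 1 the log2 change was -0.016, so its sign rested on that library. MICA shares 62 exon bases (2.60% of its exonic length) with HCP5 on the same strand. HCP5, a noncoding gene of the MHC region, had 1.30, 15.4 and 1.47 FPKM with PBS and 1.58, 18.6 and 1.66 FPKM with metformin. It was thus high in both libraries numbered 2, and MICA was not.

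MICB (ENSG00000204516.9, chromosome 6, 31494881 to 31511124, plus strand) encodes the close relative of MICA. Its values were 14.9, 12.8 and 14.6 FPKM with PBS and 16.3, 16.0 and 17.1 FPKM with metformin. The groups did not overlap, with 14.9 FPKM as the highest PBS value and 16.0 FPKM as the lowest metformin value. The mean of 14.1 ± 1.12 FPKM rose 1.17-fold to 16.5 ± 0.530 FPKM (SD, n = 3 each), the smallest change among the called ligand genes, with a log2 change of 0.21 (SE 0.07, 95% interval 0.04 to 0.38, limma adjusted p = 0.0405). The call was lost in 12 of 20 alternatives, with an adjusted p of up to 0.139. It did not survive leaving out PBS replicate 2 or 3 or metformin replicate 1, 2 or 3 (limma adjusted p = 0.0891, 0.0595, 0.0830, 0.0680 and 0.112), nor median-of-ratios scaling (0.102). The ratio of MICB to MICA FPKM was 1.27, 0.929 and 1.04 in the PBS libraries and 1.13, 1.22 and 1.25 in the metformin libraries. These ratios overlapped (means 1.08 ± 0.173 and 1.20 ± 0.0658, exact two-sided permutation p = 0.4, 0.5 after Benjamini-Hochberg adjustment over 4 such measures). With 3 libraries against 3 this test cannot go below 0.1, so it could not have called a difference. The difference of the mean ratios, 0.122, was 0.216 without PBS replicate 1 and 0.0461 without PBS replicate 2.

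**Figure D2:**
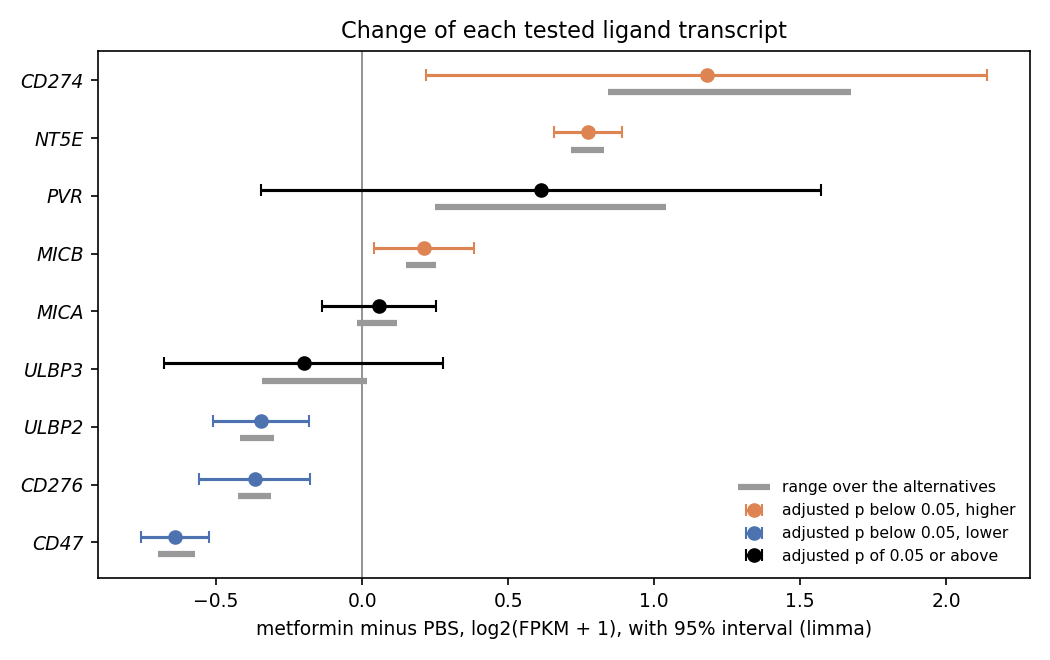
Log2 change of each of the 9 tested ligand genes (points, with the 95% interval of limma) on the log2(FPKM + 1) scale, and the range of the estimate over the alternatives (grey bars). The intervals of CD274 (0.22 to 2.14) and PVR (-0.35 to 1.57) are the widest, and the grey bars of MICA and ULBP3 reach across 0.

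ULBP1, ULBP2 and ULBP3 lie within a cluster on chromosome 6 outside the MHC and encode NKG2D ligands, most of them held on the membrane by a lipid anchor. ULBP1 (ENSG00000111981.4, 149964007 to 149973710, plus strand) was the least abundant of the 10 transcripts. It had 1.06, 0.728 and 0.428 FPKM with PBS and 1.27, 1.26 and 1.20 FPKM with metformin. All metformin values lay above all PBS values, and the PBS values were the more scattered. The means were 0.739 ± 0.317 and 1.24 ± 0.0370 FPKM (SD, n = 3 each), a 1.68-fold ratio that rests on 27, 18 and 12 estimated fragments with PBS and 32, 33 and 32 with metformin. When genes down to 0.1 FPKM were included, the log2 change was 0.38 (SE 0.14) with a limma adjusted p of 0.0787, and with no lower limit the adjusted p was 0.141, so ULBP1 passed in neither fit.

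ULBP2 (ENSG00000131015.4, 149942000 to 149949235, plus strand) was the most abundant of the ULBP transcripts. It had 15.2, 15.4 and 14.9 FPKM with PBS and 11.3, 11.1 and 12.8 FPKM with metformin. Each metformin library was below each PBS library. The fall from 15.2 ± 0.272 to 11.8 ± 0.939 FPKM (SD, n = 3 each) was 1.29-fold, or -0.35 on the log2 scale (SE 0.07, limma adjusted p = 0.00513).

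ULBP3 (ENSG00000131019.10, 150063150 to 150069095, minus strand) stood at 3.09, 2.27 and 2.68 FPKM with PBS and at 2.90, 1.36 and 2.54 FPKM with metformin. The groups overlapped, and metformin replicate 2 was the lowest library. Its log2 change of -0.20 (SE 0.20, 95% interval -0.68 to 0.28) had a limma adjusted p of 0.427. Without metformin replicate 2 the log2 change was 0.018, so the sign rested on that library, which held an estimated 11 fragments of ULBP3 against 18 to 25 in the others.

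Sequence shared between these genes limits how far their reads can be told apart. Among the distinct 150-base stretches of GENCODE 29 transcripts, 4.25% of those of ULBP2 (51 of 1200) also occur in RAET1L and 1.31% of those of ULBP3 (11 of 839) in RAET1K, while the other 8 genes share none with another gene. For 50-base stretches the shared parts were 32.2% in ULBP2, 12.4% in ULBP3, 6.85% in ULBP1, 2.86% in MICB and 2.43% in MICA. The levels of ULBP2 and ULBP3 are therefore less certain than those of the other ligand genes, since no source used here says how reads that fit 2 genes were treated. The remaining NKG2D ligands of the cluster, RAET1E, RAET1G and RAET1L, averaged below 1 FPKM in both groups and were not tested.

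Summed over the 5 genes, the NKG2D ligand transcripts overlapped between the groups, and ULBP2 held a smaller part of the sum in every metformin library. Their summed level was 46.1, 45.0 and 46.5 FPKM with PBS and 46.2, 42.9 and 47.2 FPKM with metformin. These sums overlapped, with means of 45.9 ± 0.761 and 45.4 ± 2.25 FPKM (SD, n = 3 each). ULBP2 made up 33.1, 34.3 and 32.0% of the sum with PBS and 24.5, 25.9 and 27.2% with metformin. Every metformin share was below every PBS share (means 33.1 ± 1.12% and 25.9 ± 1.34%, exact two-sided permutation p = 0.1, the smallest this design can give, 0.2 after adjustment over 4). ULBP1 made up 2.31, 1.62 and 0.920% with PBS and 2.74, 2.93 and 2.54% with metformin. Its shares also did not overlap (means 1.61 ± 0.694% and 2.73 ± 0.195%, exact p = 0.1, 0.2 adjusted), but they started from a level at which a few fragments count. The share of ULBP3 overlapped between groups (5.84 ± 0.838% and 4.94 ± 1.60%, exact p = 0.5). The 5 checkpoint ligand transcripts summed to 79.4, 90.0 and 90.0 FPKM with PBS and to 101, 111 and 88.0 FPKM with metformin. Those sums overlapped through metformin replicate 3.

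**Figure D3:**
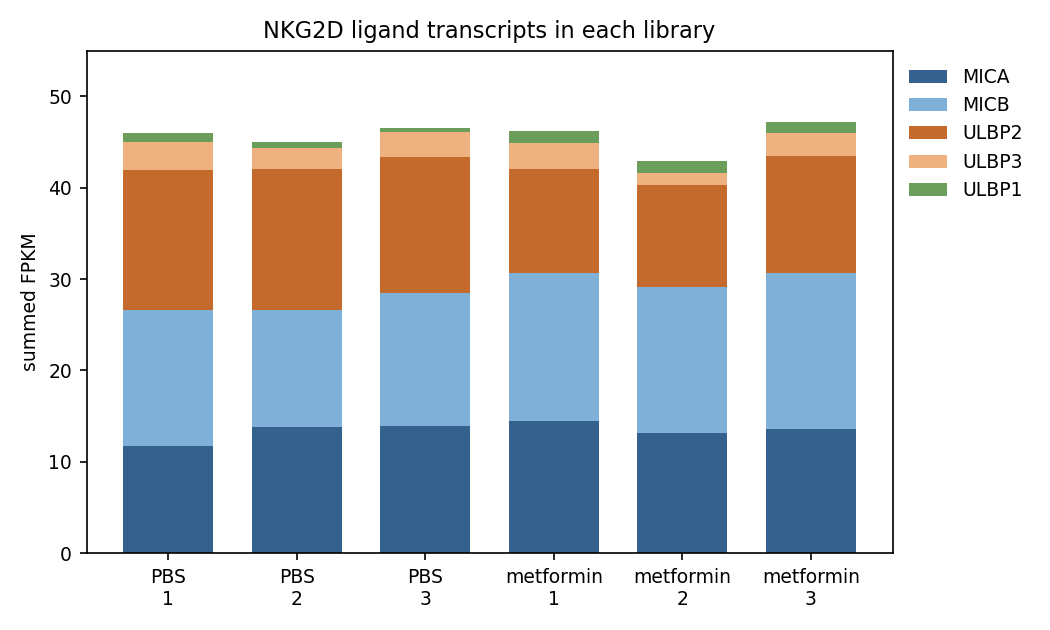
FPKM of the 5 NKG2D ligand genes stacked in each library (vertical axis from 0, 1 bar per library). The bars are of similar height, from 42.9 to 47.2 FPKM, while the ULBP2 segment covers 32.0 to 34.3% of the PBS bars and 24.5 to 27.2% of the metformin bars.

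The order of levels among the 10 genes changed at the top. In PBS, CD47 stood above all others, followed by PVR and NT5E, whose values overlapped. The PVR values, 11.6 to 25.1 FPKM, also overlapped those of the next 4 genes. ULBP2, MICB, MICA and CD276 came next, each overlapping its neighbour. ULBP3 and CD274 overlapped at a lower level, and ULBP1 was lowest. With metformin, NT5E stood above CD47 without overlap. PVR had the highest mean, but its values, 17.1 to 47.4 FPKM, took in those of both, and its place rests on the 47.4 FPKM of metformin replicate 2. MICB, MICA, ULBP2 and CD276 then followed without overlap between neighbours. CD274 overlapped both CD276 and ULBP3, and ULBP1 was again lowest.

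Genes around the ligands were taken from lists and read against the 56.2% of all tested genes that were called. Of 16 tested other checkpoint and co-inhibitory genes, all surface or secreted ligands or receptors except the enzyme IDO1 (called lower), 7 were called higher and 5 lower (median log2 change 0.23). HLA-E, which holds natural killer cells back through NKG2A, rose 1.47-fold from 78.9 ± 5.20 to 116 ± 2.92 FPKM. LGALS3, a galectin that binds LAG3, rose 1.80-fold to 27.1 ± 0.782 FPKM. LGALS9, the other galectin of the list, was called lower, from 2.46 ± 0.149 to 0.850 ± 0.194 FPKM (limma adjusted p = 0.000551). BTN3A3, a butyrophilin, rose 1.66-fold to 5.41 ± 1.01 FPKM. NECTIN1, a nectin of the same family as PVR, fell 1.75-fold to 9.86 ± 0.300 FPKM. Of the other nectins of the list, NECTIN2 and NECTIN4 were called higher. NECTIN3 averaged 0.825 FPKM with PBS and 0.550 FPKM with metformin and was not tested. NECTIN2 rose from 22.2 ± 1.14 to 25.4 ± 0.0580 FPKM (limma adjusted p = 0.0244). For NECTIN4 the rise was from 3.18 ± 0.486 to 4.73 ± 0.365 FPKM (limma adjusted p = 0.00973).

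Among 14 tested genes of lymphocyte activation and killing outside NKG2D, which include the receptors FAS, TNFRSF10A, TNFRSF10B and CD40 beside ligands, 3 were called higher and 5 lower (median log2 change -0.18). TNFSF18, the GITR ligand, rose from 0.855 ± 0.498 to 7.74 ± 0.479 FPKM, and TNFRSF10B, a death receptor for TRAIL, rose 2.42-fold to 69.6 ± 1.92 FPKM. TNFSF10, which encodes TRAIL, fell 2.63-fold to 8.41 ± 0.983 FPKM, and TNFSF9, the 4-1BB ligand, fell 2.23-fold to 4.14 ± 0.288 FPKM. NCR3LG1, which encodes B7-H6, the ligand of the natural killer receptor NKp30, was picked out after its values were seen. It had 0.521, 0.351 and 0.474 FPKM with PBS and 4.71, 3.82 and 4.66 FPKM with metformin, a change larger than that of any NKG2D ligand tested (log2 change 1.89, limma adjusted p = 2.4e-05).

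The adenosine pathway around NT5E moved on several sides, with all 8 tested genes called, 2 higher and 6 lower. ADORA2B, a receptor for adenosine, rose 1.84-fold from 17.5 ± 1.89 to 32.3 ± 1.24 FPKM. ADA, the deaminase that removes adenosine, fell 3.61-fold from 13.9 ± 2.42 to 3.84 ± 0.146 FPKM. The equilibrative transporters that carry adenosine across the membrane fell as well, SLC29A1 2.15-fold to 8.10 ± 0.739 FPKM and SLC29A2 2.11-fold to 6.53 ± 0.598 FPKM. NT5E itself is counted with the ligand genes and not in this list.

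Proteins that modify, stabilise or shed the ligands were 21 tested genes, 7 called higher and 6 lower (median 0.10). ADAM17, a sheddase known to cut NKG2D ligands from the surface, rose 1.76-fold from 18.5 ± 0.223 to 32.6 ± 0.0662 FPKM. ADAM10, of the same list, moved the other way and was called lower. Its mean went from 12.5 FPKM with PBS to 9.54 FPKM with metformin, without overlap between groups (limma adjusted p = 0.0129). CMTM4, which protects PD-L1 from degradation, rose 2.04-fold to 20.4 ± 0.120 FPKM. Its relative CMTM6 was called lower, from 24.5 ± 1.77 to 19.4 ± 1.33 FPKM (limma adjusted p = 0.0111). PDIA6, a disulphide isomerase involved in MICA shedding, fell 1.90-fold to 70.8 ± 1.24 FPKM. CALR, the calreticulin that promotes engulfment in opposition to CD47, fell 2.64-fold from 438 ± 14.6 to 166 ± 3.19 FPKM.

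Of 20 tested interferon and JAK-STAT genes that control CD274, 6 were called higher and 6 lower (median 0.11). IFNGR1, the receptor subunit that binds interferon gamma, fell 2.89-fold from 54.4 ± 2.85 to 18.9 ± 0.0850 FPKM, and the feedback inhibitor SOCS1 fell 2.12-fold to 3.06 ± 0.216 FPKM. STAT2 rose 2.50-fold to 36.9 ± 0.710 FPKM, and NLRC5, an activator of MHC class I genes, rose 2.38-fold from 3.36 ± 0.0966 FPKM.

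Among 28 other transcriptional regulators, 11 were called higher and 9 lower (median 0.39). DDIT3, the stress factor CHOP, rose 14.6-fold to 125 ± 11.4 FPKM. JUN rose 2.96-fold to 85.4 ± 2.58 FPKM, and NFE2L2, the oxidative stress factor NRF2, rose 2.61-fold to 19.3 ± 0.654 FPKM. HIF1A, the hypoxia factor known to induce CD274, CD47 and NT5E in several cell types, fell 3.04-fold from 147 ± 5.25 to 48.4 ± 0.992 FPKM. Of 10 DNA damage response genes, whose kinases are known to induce NKG2D ligands, 1 was called higher and 5 lower (median -0.30). H2AFX fell 2.62-fold to 21.1 ± 2.55 FPKM, CHEK2 1.61-fold to 4.74 ± 0.368 FPKM and PRKDC from 53.8 ± 5.04 to 35.9 ± 0.854 FPKM.

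**Figure D4:**
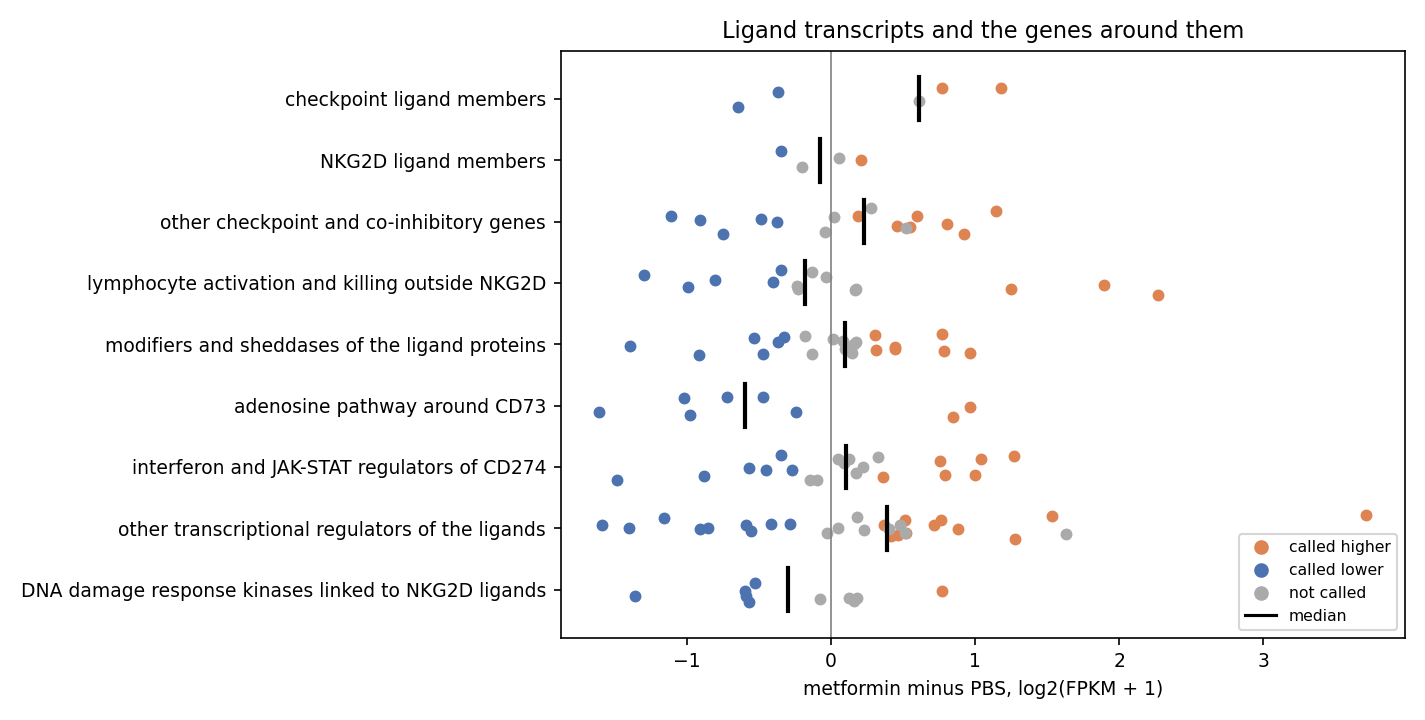
Log2 change (metformin minus PBS, log2(FPKM + 1)) of each tested gene in the 2 groups of ligand genes and in 7 lists around them, 1 point per gene, coloured by limma call, with the median of each list as a black bar; vertical position within a list is arbitrary. Calls in both directions occur in every list, and DDIT3 is the point farthest to the right.

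Markers of the cells themselves and of other cell types were measured beside these results. Of 17 squamous epithelial markers, all were tested, and 6 were called higher (KRT8, KRT18, EPCAM, CDH1, DSG3 and CD44) and 9 lower. Of the 3 most abundant, SFN had 310.2 ± 10.3 and 315 ± 22.1 FPKM, while KRT5 and KRT14 fell to 52.4 ± 4.19 and 12.9 ± 0.275 FPKM. The summed level of this list was 1844 to 1954 FPKM with PBS and 1265 to 1287 FPKM with metformin. Immune cell markers summed to 6.41 to 7.71 and 5.68 to 7.97 FPKM, with 14 of 17 below 1 FPKM in every library and CD79A listed at 0 throughout. Of that list CD14 fell to 0.942 ± 0.135 FPKM, CD68 rose to 3.33 ± 0.319 FPKM and CSF1R had 0.224 ± 0.0167 and 0.916 ± 0.109 FPKM without a test. Fibroblast and endothelial markers summed to 8.72 to 9.97 and 6.30 to 6.57 FPKM, of which CDH5 alone made 6.17 ± 0.516 and 2.03 ± 0.0758 FPKM, and COL1A1 and ACTA2 rose to 2.38 ± 0.221 and 1.61 ± 0.104 FPKM. Among 13 receptors of the ligands, SIRPA, the receptor of CD47, rose to 8.75 ± 0.640 FPKM and LAG3 to 1.53 ± 0.153 FPKM, SIRPB1 had 0.302 ± 0.0902 and 0.343 ± 0.0938 FPKM, and 11 stayed below 1 FPKM in every library. Of the long noncoding transcripts listed as a sign of RNA quality, MALAT1 rose 3.50-fold to 91.7 ± 0.980 FPKM. NEAT1 (53.9 ± 2.57 and 52.2 ± 4.34 FPKM) and SNHG1 (19.4 ± 1.42 and 18.2 ± 1.62 FPKM) were not called. The part of the squamous and MALAT1 shifts in the ligand results was not tested. Some genes named outside the 10 have exons that overlap those of another expressed gene, and their levels are uncertain to that extent. They are CALR, PDIA6, ADAM17, TNFRSF10B, ADA, SLC29A2, DDIT3, HIF1A, NFE2L2, CHEK2, CD68, ACTA2 and SNHG1. The same holds for ADAM10, CMTM6, TNFRSF10A, FAS, RAET1G, KRT8, KRT18, CDH1 and CD44.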

How the data were processed

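The 6 CAL27 libraries were made with a VAHTS mRNA-seq kit, per the labels. Values are FPKM of each gene as the authors deposited them, 1 file for each library per the file headers, on GRCh38, per the submitters' processing notes. Not given in the sources used here: aligner, counting tool, strand setting, annotation. FPKM is relative to all mapped fragments, so an abundant gene that changes shifts the others.

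Identifiers without version were matched to GENCODE 29, which named 57980 of 58243 genes. The files hold no counts. From steps in the low values of genes with 1 transcript, depth was estimated at 7810000 to 8820000 fragments per library. The steps were not clear enough to recover whole reads, so fragment numbers are estimates and carry no interval. FPKM summed to 200842 to 208899 per library. All 37 mitochondrial genes are listed at 0, so a listed 0 is not read as absence.

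Genes averaging 1 FPKM or more were fitted with limma 3.58.1 (R 4.3.3, lmFit and eBayes with trend, two-sided) on log2(FPKM + 1), with group as the only term, after the fit was tested on simulated data. Shares and ratios were compared with exact permutation tests in SciPy 1.17.1. Motifs and shared stretches were counted with Python 3.11.15, figures drawn with matplotlib 3.10.9. Upstream windows are RefSeq, GRCh38.p14.

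The ligand genes, lists and tests were chosen with earlier results of these data known. Besides the 10 ligand genes, the text names in each pathway list up to 4 called genes with the largest changes without overlap between groups and with 5 FPKM or more in the higher group. It names the 3 most abundant genes of each other list, and genes that share exons with a ligand gene. ADAM10, CMTM6, LGALS9, NECTIN2 and NECTIN4 are named beside these because a gene named by the rule moved the other way. NECTIN3 is named as the remaining nectin of its list. Replicate numbers are shared by both groups, but same-numbered libraries did not deviate together, so no block was used.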

Additional observations from a re-analysis of the deposited data

How the results depend on the processing

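The alternatives were other pseudocounts (0.1 and 0.01), other level limits, rescaling to TPM, quantile or median-of-ratios scaling, limma without trend or with a robust prior, a replicate block, protein-coding genes alone, and libraries left out. Leaving out both libraries numbered 2 was added after the data were seen. The 3 ligand genes called lower were called in every alternative. The number called higher, 3 at first, was 1 with no level limit, 1 with a limit of 0.1 FPKM and 1 without both libraries numbered 3, and it ranged from 1 to 2 with 1 library left out. NT5E was the gene that remained each time. A limit of 5 FPKM tests 7388 genes and called 4738 of them, against 7549. It leaves out CD274 and ULBP3. With 1 library left out, the log2 change of MICA ranged from -0.0163 (without PBS replicate 1) to 0.0995, and that of ULBP3 from -0.34 to 0.0180 (without metformin replicate 2). The cause was not tested in either case.

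With the replicate number as a block, 7139 genes were called, among them 2 ligand genes higher and 3 lower, and MICB had an adjusted p of 0.0520 by limma. Same-numbered libraries had deviations from their group means that correlated at -0.0004, 0.030 and -0.010, and not every library correlated best with its own number. The PBS values of ULBP1, ULBP3 and CD274 rest on an estimated 12 to 91 fragments per library. The metformin values of CD274 rest on 357, 96 and 291, and the values of PVR on 333 to 1406. The part of depth in the spread of these genes was not tested.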

Other observations

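Because HCP5 was high in both libraries numbered 2, genes with that kind of pattern were counted afterwards among the 7388 genes that averaged 5 FPKM or more. Both libraries of a number were at least 3-fold above all others in 0 genes for number 1, in 2 genes for number 2, HCP5 among them, and in 5 genes for number 3. Both were at least 3-fold below all others in 1 gene for number 1 and in 0 genes for numbers 2 and 3. No ligand gene was among these 8 genes.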
